A study of Mus musculus with 4 samples.

Results

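The growth hormone and IGF1 axis is described here through 10 genes, picked by gene name from the 54532 genes of the count table: Ghr, Prlr, Stat5b, Socs2, Igf1, Igfals, Igfbp1, Igfbp2, Igfbp3 and Igfbp4. Each name occurred once there. The 4 RNA-seq libraries come from livers of mice with a liver-specific knockout of Cpt1a, taken after a 24 h fast, and are called livers 1 to 4. Whether each library is a different mouse is not in the labels, so their spread may be technical only. Levels are the authors' FPKM, that is, counts scaled to the length of the gene model and to a library size. Comparisons come from 3 tables made by the authors, which set against each other the Cpt1a knockout, a Cpt2 group and a reference group, and give no SD or n. The design text describes mice lacking Cpt1a or Cpt2 and littermate controls, all fasted for 24 h. Table columns name the Cpt1a and Cpt2 groups with AlbCre, the usual short name of a Cre transgene under the albumin promoter, which is active in hepatocytes. The reference group's column name joins Rab30 and Cpt2, and what it stands for is not given in the sources used here, nor are sex, age and strain.

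Pituitary growth hormone binds its receptor on hepatocytes, and the kinase JAK2 then activates the transcription factor STAT5B, which drives transcription of Igf1, of Igfals and of the feedback inhibitor Socs2. IGF1 circulates mostly in a complex with IGFBP3 and the acid-labile subunit, the product of Igfals, and other binding proteins carry smaller amounts. In fasting the liver becomes less responsive to growth hormone, and Igfbp1, which insulin represses through FOXO factors, is induced.

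In the authors' deposited tables the Cpt2 group had less transcript than the reference group for both hormone receptors, Ghr and Prlr, for Igf1 and Igfals, and for Igfbp4. For the Cpt1a knockout against that reference the authors' deposited table does not list Ghr, Prlr, Igf1 or Igfals, and gives less Igfbp2 and Igfbp4. Set directly against the Cpt2 group, the Cpt1a knockout had 2.0-fold more Ghr, 2.01-fold more Igfals and 1.75-fold more Igf1, but 6.37-fold less Igfbp1, in the authors' deposited table. The comparisons share their groups, so they are not independent of each other.

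Targeting was read first from Cpt1a, at 24.4, 28.6, 31.1 and 36.9 FPKM in livers 1 to 4, which the authors' deposited table gives as 6.91-fold lower than in the reference group. Cpt2 had a log2 fold change of −0.07 in the Cpt2 group against the reference group in the authors' deposited table (adjusted p = 0.837), so its transcript does not check that label. Deleting some exons can leave a gene's total count as it was, and the reference group's name also holds Cpt2. Whether either bears on this value was not tested. The 4 libraries held 13138884 to 14116441 counts, and a member had between 288 and 25882 counts in a liver.

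Start site sequences are shown for the members whose 300-base window held a motif tied to the axis, from RefSeq on GRCm38.p6, 5′ to 3′ on the gene's strand. Each window runs from 250 bases before a RefSeq start to 50 bases from it on. Of the 10 members, 9 had 1 or more windows, 16 in all, and Socs2 had none. The motifs were TTCNNNGAA, the core bound by STAT5, which reads the same on both strands, GTAAACA, the core bound by FOXO factors, and CAAAACA, the core of the insulin response element, the last pair on both strands. Capitals mark the matches.
Igfbp1 (chr11:7197537-7197836, plus strand): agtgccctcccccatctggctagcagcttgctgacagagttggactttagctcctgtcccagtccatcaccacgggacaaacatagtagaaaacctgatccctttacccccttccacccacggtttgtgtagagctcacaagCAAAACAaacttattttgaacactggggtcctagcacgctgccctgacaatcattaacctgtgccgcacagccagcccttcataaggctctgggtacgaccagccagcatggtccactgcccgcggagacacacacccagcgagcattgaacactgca
Igfals (chr17:24877981-24878280, plus strand): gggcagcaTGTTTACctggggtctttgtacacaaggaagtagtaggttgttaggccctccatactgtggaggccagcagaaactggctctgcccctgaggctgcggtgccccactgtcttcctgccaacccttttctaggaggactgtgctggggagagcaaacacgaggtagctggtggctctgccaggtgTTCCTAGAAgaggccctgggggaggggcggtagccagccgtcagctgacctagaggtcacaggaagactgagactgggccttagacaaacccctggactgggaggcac
Prlr (chr15:10223656-10223955, plus strand): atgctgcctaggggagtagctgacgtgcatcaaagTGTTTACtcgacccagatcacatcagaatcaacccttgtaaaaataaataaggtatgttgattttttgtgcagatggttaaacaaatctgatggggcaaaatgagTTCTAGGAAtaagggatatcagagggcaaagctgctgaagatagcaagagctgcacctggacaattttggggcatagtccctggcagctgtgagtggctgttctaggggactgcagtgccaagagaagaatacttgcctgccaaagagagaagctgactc

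The Igfbp1 window had a CAAAACA match that begins 108 bases before the start. The Igfals window shown, at a start of 24878231 that lies upstream of the counted gene's bound, had TTCCTAGAA beginning 58 bases before that start. It also had TGTTTAC, the reverse complement of the FOXO core, beginning 242 bases before the start. An upstream Igfals window (chromosome 17, 24877594 to 24877893) held TTCTCAGAA, beginning 236 bases before its start. The Prlr window shown, at a start of 10223906 inside the gene, held TTCTAGGAA from 110 bases and TGTTTAC from 215 bases before that start. Another Prlr window (chromosome 15, 10293401 to 10293700) held TGTTTTG from 37 bases after its start. The Prlr window at the first base of the counted gene (start 10177238) held no match. Nor did the Igfals window nearest the first base of the counted gene (start 24878747). Among all 32851 windows, TTCNNNGAA was in 8.30%, GTAAACA in 3.65% and CAAAACA in 6.28%. Of the 16 windows of the members, 3, 2 and 2 held these motifs. A match is a run of letters and no measured binding site.

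Ghr encodes the growth hormone receptor (ENSMUSG00000055737, chromosome 15, 3317760 to 3583492, minus strand, GRCm38). Its level was 34.3, 39.6, 33.5 and 35.8 FPKM in livers 1 to 4, a mean of 35.8 ± 2.71 (SD, n = 4). The livers lay close together, with liver 2 the highest. The Cpt2 group had 2.22-fold less Ghr than the reference group in the authors' deposited table (log2 fold change −1.15, adjusted p = 0.000270). Compared with the Cpt2 group, the Cpt1a knockout had more in the authors' deposited table (log2 fold change 1.0, adjusted p = 1.50e-12). The authors' deposited table that sets the Cpt1a knockout against the reference is partial. It lists 4461 genes, all at an unadjusted p of at most 0.05, and Ghr is not among them. Adding the log2 fold changes of the other authors' deposited tables gives a stand-in for the missing value, with no p, which was −0.16 for Ghr.

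Prlr encodes the prolactin receptor, a cytokine receptor of the same family that also signals through JAK2 and STAT5 (ENSMUSG00000005268, chromosome 15, 10177238 to 10349180, plus strand). Its level was 5.95, 4.25, 3.21 and 3.46 FPKM in livers 1 to 4 (4.22 ± 1.24, SD, n = 4). Liver 1 was 1.85 times liver 3, so the receptor of prolactin varied more between livers than that of growth hormone. The authors' deposited table put it 1.64-fold lower in the Cpt2 group than in the reference group (log2 fold change −0.71, adjusted p = 0.0247). It was 1.64-fold higher in the Cpt1a knockout than in the Cpt2 group in the authors' deposited table (log2 fold change 0.71, adjusted p = 0.00210). Prlr is not in the partial table, and its summed log2 fold change over the other authors' deposited tables was 0.0004.

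Stat5b, the main transducer of growth hormone in the liver (ENSMUSG00000020919, chromosome 11, 100780731 to 100850724, minus strand), was at 9.35, 8.61, 7.32 and 7.67 FPKM (8.24 ± 0.919, SD, n = 4). It was called in none of the 3 comparisons. Against the reference its log2 fold change was −0.42 for the Cpt1a knockout (adjusted p = 0.158) and −0.07 for the Cpt2 group (adjusted p = 0.871) in the authors' deposited tables. Between these groups it was −0.36 in the authors' deposited table (adjusted p = 0.0685). Reads of Stat5b and its neighbour and paralog Stat5a may be mixed up to a degree, since 11.0% of the 50-base stretches of Stat5b transcripts also occur in Stat5a transcripts. Stat5a, less abundant at 1.74 ± 0.234 FPKM (SD, n = 4), was 1.56-fold higher in the Cpt2 group than in the reference group in the authors' deposited table (adjusted p = 0.00151). It had a log2 fold change of −0.55 in the Cpt1a knockout against the Cpt2 group in the authors' deposited table (adjusted p = 0.00282).

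Socs2, a STAT5 target whose product dampens growth hormone receptor signalling (ENSMUSG00000020027, chromosome 10, 95385362 to 95417180, minus strand), was the least abundant member by the authors' FPKM, which rests on a long gene model. Its level was 2.93, 2.01, 2.78 and 2.80 FPKM in livers 1 to 4 (2.63 ± 0.418, SD, n = 4), from 419, 288, 420 and 419 counts. Liver 2 stood below the other 3, which lay within 0.2 FPKM of each other. Socs2 was 1.47-fold higher in the Cpt1a knockout than in the Cpt2 group in the authors' deposited table (log2 fold change 0.56, adjusted p = 0.0456). Against the reference group the Cpt2 group had a log2 fold change of 0.20 in the authors' deposited table (adjusted p = 0.873). For the Cpt1a knockout the summed value over the authors' deposited tables was 0.76, with no p and no entry in the partial table. Socs2 was thus not called in the comparison in which Ghr and Igf1 were lower, and whether its change differed from theirs was not tested. Cish, another feedback inhibitor, was at 2.01 ± 0.589 FPKM (SD, n = 4) and was called in none of the authors' deposited tables that list it (log2 fold changes 0.03 and 0.46). Jak2, the receptor's kinase, was at 4.67 ± 0.741 FPKM (SD, n = 4) and had an adjusted p = 0.0501 in the Cpt1a knockout against the Cpt2 group in the authors' deposited table (log2 fold change 0.41).

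Igf1 encodes the hormone itself, of which the liver is the main source in blood (ENSMUSG00000020053, chromosome 10, 87858265 to 87937042, plus strand). Its level was 77.1, 67.6, 54.1 and 47.5 FPKM in livers 1 to 4 (61.6 ± 13.3, SD, n = 4). Liver 1 had 1.62 times the level of liver 4. It was 1.81-fold lower in the Cpt2 group than in the reference group in the authors' deposited table (log2 fold change −0.86, adjusted p = 0.000789). The Cpt1a knockout had 1.75-fold more than the Cpt2 group in the authors' deposited table (log2 fold change 0.81, adjusted p = 2.48e-05). Its summed log2 fold change against the reference group over the authors' deposited tables was −0.05, with no entry in the partial table. The antisense gene Igf1os overlaps Igf1 on the other strand and had 18 to 46 counts a liver, against 7400 to 11457 for Igf1. Igf1r, the receptor of IGF1, was at 0.303 ± 0.101 FPKM (SD, n = 4), and Igf2 had a count of 0 in all 4 livers.

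Igfals, which encodes the acid-labile subunit (ENSMUSG00000046070, chromosome 17, 24878770 to 24882008, plus strand), was the steadiest member. Its level was 28.3, 27.3, 28.3 and 27.6 FPKM in livers 1 to 4 (27.9 ± 0.503, SD, n = 4). The spread was 1.80% of the mean, while that of Igf1 was 21.6%, and the ratio of Igf1 to Igfals in FPKM ran from 1.72 to 2.72. Igfals was 2.16-fold lower in the Cpt2 group than in the reference group in the authors' deposited table (log2 fold change −1.11, adjusted p = 0.00107). It was higher in the Cpt1a knockout than in the Cpt2 group in the authors' deposited table (log2 fold change 1.01, adjusted p = 3.67e-13). Igfals is not in the partial table, and its summed value over the other authors' deposited tables was −0.10.

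The binding proteins did not share a pattern. Igfbp1 (ENSMUSG00000020429, chromosome 11, 7197782 to 7202546, plus strand) was at 81.2, 35.6, 67.9 and 36.3 FPKM (55.2 ± 22.9, SD, n = 4). Livers 1 and 3 were high and livers 2 and 4 low, and the highest was 2.28 times the lowest. Igfbp1 was 6.37-fold lower in the Cpt1a knockout than in the Cpt2 group in the authors' deposited table (log2 fold change −2.67, adjusted p = 3.0e-22). This was the largest difference of any member in that comparison. The Cpt2 group had a log2 fold change of −1.07 against the reference in the authors' deposited table, an entry with no p-value. It is 1 of 26 such entries among the 23399 genes listed, and whether 1 library carries it was not tested. Igfbp1 is not in the partial table. Its summed log2 fold change there was −3.74 over the authors' deposited tables, with no p, and it rests on the entry without one.

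Igfbp2, which hepatocytes secrete in amounts that rise in fasting (ENSMUSG00000039323, chromosome 1, 72824503 to 72852474, plus strand), was at 535, 292, 383 and 327 FPKM (384 ± 107, SD, n = 4). Liver 1 was the highest by a clear step. The Cpt1a knockout had 1.79-fold less Igfbp2 than the reference group in the authors' deposited table (log2 fold change −0.84, adjusted p = 0.0214) and 1.53-fold less than the Cpt2 group (log2 fold change −0.61, adjusted p = 0.0180). The Cpt2 group was at −0.24 against the reference group in the authors' deposited table (adjusted p = 0.607).

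Igfbp4, a binding protein that mostly restrains IGF action (ENSMUSG00000017493, chromosome 11, 99041244 to 99054392, plus strand), was at 358, 358, 369 and 308 FPKM (348 ± 27.5, SD, n = 4). Liver 4 was the lowest and the other 3 were about alike. It was the 1 member called in all 3 comparisons. The Cpt2 group had 2.06-fold less than the reference group in the authors' deposited table, with the smallest adjusted p of the members (log2 fold change −1.04, adjusted p = 3.15e-18). In the Cpt1a knockout it was 1.32-fold lower than in the reference group in the authors' deposited table (log2 fold change −0.40, adjusted p = 0.0225). It was 1.54-fold higher in the Cpt1a knockout than in the Cpt2 group in the authors' deposited table (log2 fold change 0.63, adjusted p = 4.46e-07).

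Igfbp3, the main carrier of IGF1 in blood and in the liver a product mostly of non-parenchymal cells, lies tail to tail with Igfbp1, 3539 bases away (ENSMUSG00000020427, chromosome 11, 7206086 to 7213923, minus strand). It was at 9.90, 8.20, 7.91 and 8.74 FPKM (8.69 ± 0.877, SD, n = 4), a narrow range. Its log2 fold change was 0.20 in the Cpt2 group against the reference group (adjusted p = 0.634) and −0.17 in the Cpt1a knockout against the Cpt2 group (adjusted p = 0.553) in the authors' deposited tables. Neither passed, while its neighbour Igfbp1 was called in the second of these. For the Cpt1a knockout against the reference the summed value over the authors' deposited tables was 0.02.

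**Figure D1:**
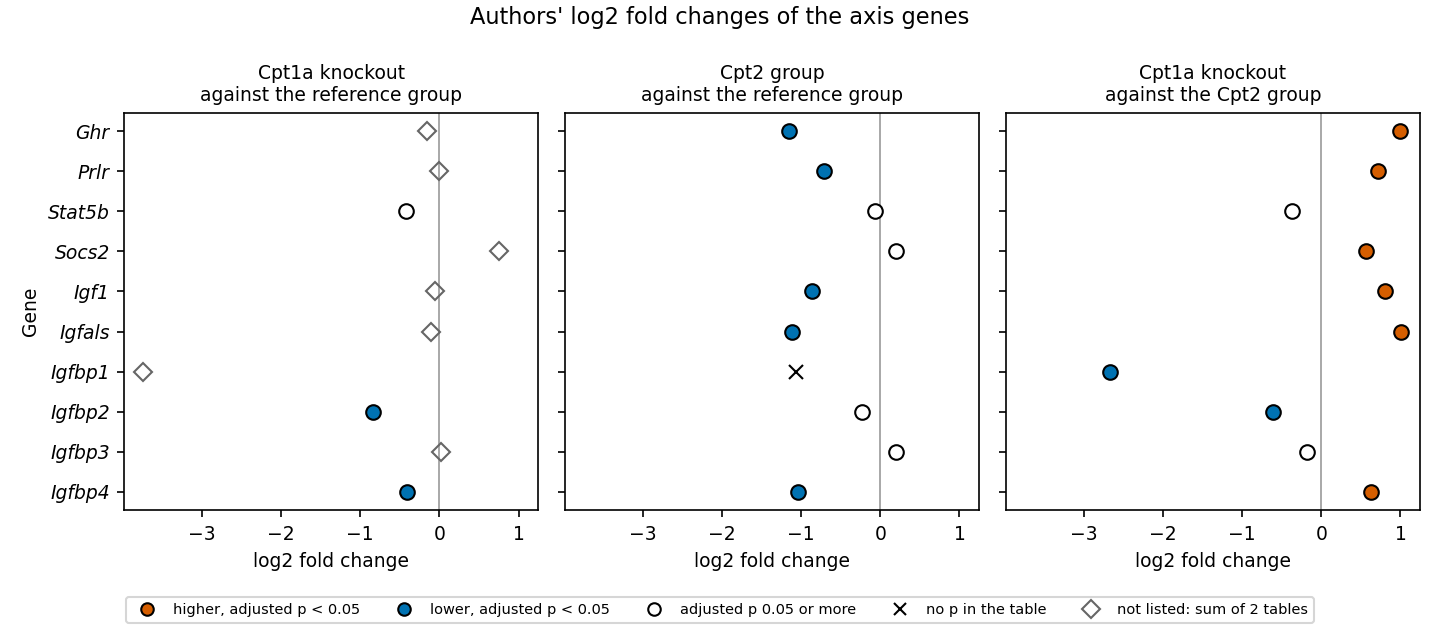
The authors' log2 fold changes of the 10 genes in the 3 comparisons, in 1 panel each. Filled circles passed an adjusted p below 0.05 (orange higher, blue lower), open circles did not, the cross is Igfbp1, which has no p there, and diamonds are summed values of genes that the partial table does not list. Ghr, Prlr, Igf1, Igfals and Igfbp4 lie to the left in the middle panel and to the right in the last.

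Counted over the members, the Cpt2 group differed from the reference group in 5 of 9 genes with an adjusted p, all 5 lower, where 21.0% of the 17475 genes tested were called, 10.3% higher and 10.7% lower, as the authors' deposited table gives them. Their median log2 fold change was −0.71, against −0.03 over all genes tested, in the authors' deposited table. The Cpt1a knockout differed from the reference group in 2 members, both lower, where 14.4% of about 16862 genes tested were called, 6.81% higher and 7.60% lower, by the authors' deposited table. That partial table lists 3 of the 10 members, and how many of the others were tested is not known. Taken over all 10 members, a share of 2 in 10 is near that background. The median summed log2 fold change of the 10 members was −0.13, against 0.01 over 17054 genes, from the other authors' deposited tables. With the Cpt1a knockout set against the Cpt2 group, 8 of 10 passed, 6 higher and 2 lower, where 28.8% of 17755 genes were called, 14.2% higher and 14.6% lower, as the authors' deposited table gives them. The members' median was 0.59 there, against 0.05 over all genes tested, in the authors' deposited table. At an adjusted p below 0.01 the members called were 0, 4 and 6 for the Cpt1a knockout and the Cpt2 group against the reference and for the one against the other, where 8.24%, 14.8% and 19.7% of genes were called, in the authors' deposited tables. Requiring an absolute log2 fold change of 1 or more beside the adjusted p below 0.05 left 0, 3 and 2 members, where 6.58%, 10.6% and 10.7% of genes were called, in the authors' deposited tables. Among protein-coding genes 23.1% were called in the Cpt2 group and 32.4% between it and the Cpt1a knockout in the authors' deposited tables. The members were chosen with results of these data known, so these counts are a description.

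In order of mean FPKM the members were Igfbp2, Igfbp4, Igf1, Igfbp1, Ghr, Igfals, Igfbp3, Stat5b, Prlr and Socs2. Of 9 neighbouring pairs, 4 had ranges over livers that overlap, namely Igfbp2 with Igfbp4, Igf1 with Igfbp1, Igfbp1 with Ghr, and Igfbp3 with Stat5b. The largest step was from Igfbp4 to Igf1, 5.66-fold. The levels depend on the authors' gene model lengths, which for 8 of the 10 members are above that of the longest coding transcript. The Socs2 model has 9531 bases where its longest coding transcript in GENCODE M21 has 2222, and the Ghr model has 9053 against 4175. The Igfbp1 model matches its transcript at 1525 bases. The Igfals model, whose bounds differ from those in GENCODE M21, has 2111 bases, fewer than its coding transcript of 2625. Rescaled to the longest coding transcript, an alternative chosen after seeing the data, Socs2 was at 11.3 ± 1.79 (SD, n = 4), beside Igfbp3 at 11.2 ± 1.13 and above Stat5b (8.75 ± 0.976) and Prlr (6.53 ± 1.91). The order was then Igfbp2, Igfbp4, Igf1, Ghr, Igfbp1, Igfals, Socs2, Igfbp3, Stat5b and Prlr. The lower places, and Ghr against Igfbp1, therefore hold only for a given choice of length.

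**Figure D2:**
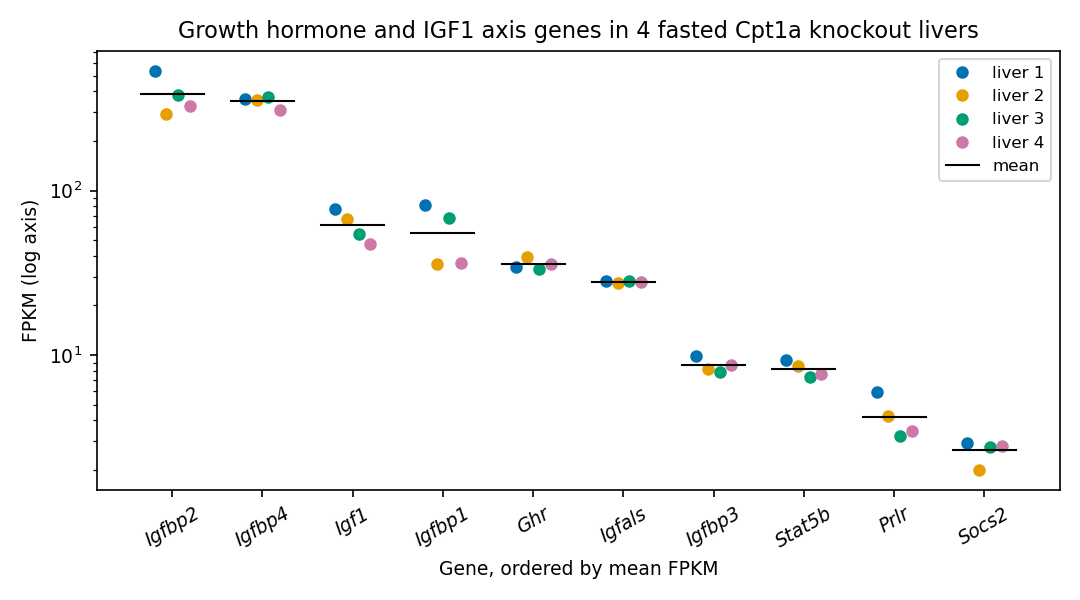
FPKM on a log axis of the 10 genes in the 4 fasted Cpt1a knockout livers, 1 point a liver, with a line at the mean. Igfbp2 and Igfbp4 lie between 292 and 535 FPKM, Socs2 between 2.01 and 2.93, and the points of Igfbp1 fall into a higher and a lower pair.

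Between livers, the SD of log2(FPKM + 1) had a median of 0.16 over the members and of 0.20 over 10859 genes with a mean FPKM of at least 1. Igfbp1 had the largest SD of the members, 0.60, above that of 94.9% of these genes. Igfals had the smallest, 0.03, and 0.249% of these genes had a smaller one. Igfbp2 (0.38), Prlr (0.32) and Igf1 (0.31) were the other members above the median of all genes. Liver 1 had the highest FPKM for 8 of the 10 members, and for 34.2% of the 10859 genes.

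**Figure D3:**
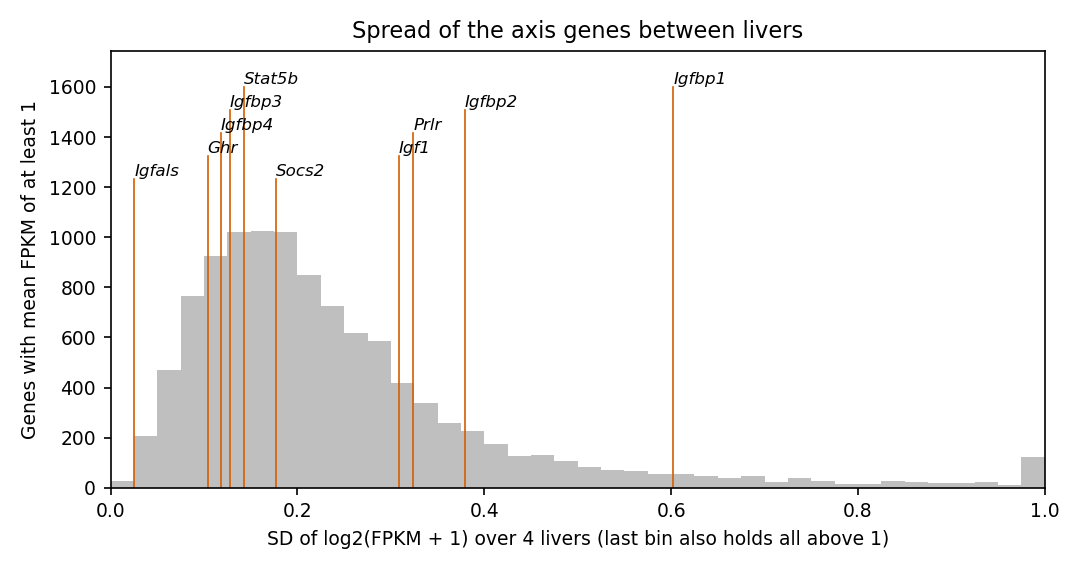
Histogram of the SD of log2(FPKM + 1) over the 4 livers for 10859 genes, with an orange line at the SD of each of the 10 genes. Igfals (0.03) lies at the left edge and Igfbp1 (0.60) in the right tail.

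The make-up of the binding protein transcripts was set out per length for Igfbp1 to Igfbp7. In the 4 livers Igfbp2 took 39.2 to 51.6% and Igfbp4 34.6 to 48.0% of their summed FPKM. Igfbp1 took 6.30 ± 1.67% (SD, n = 4) and Igfbp3 1.03 ± 0.135%. Igfbp7, an endothelial and stellate cell product that binds IGF weakly, took 6.37 ± 1.04%, at 53.1 ± 3.01 FPKM (SD, n = 4). Igfbp5 and Igfbp6 were at 0.696 ± 0.150 and 1.05 ± 0.690 FPKM (SD, n = 4 each). Igfbp5, Igfbp6 and Igfbp7 were called in none of the authors' deposited tables that list them.

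**Figure D4:**
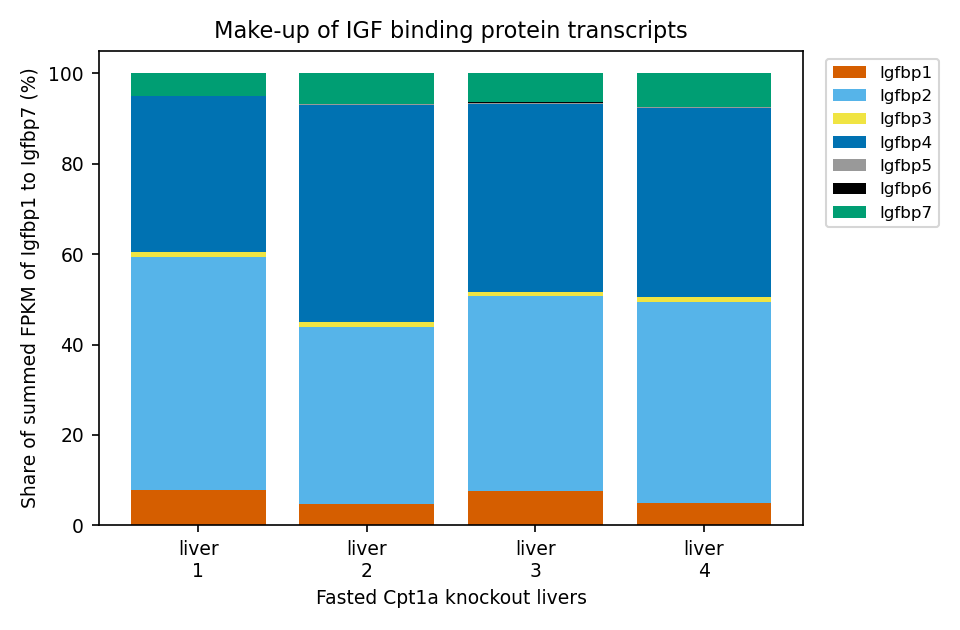
Share of each gene in the summed FPKM of Igfbp1 to Igfbp7, in percent, in the 4 fasted Cpt1a knockout livers, 1 bar a liver. Igfbp2 and Igfbp4 fill most of each bar, and the Igfbp1 segment is 4.78 to 7.83%.

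Other genes of the pathway were counted in 5 lists. Of 11 genes of receptor signalling, 1 was lower in the Cpt1a knockout and 1 higher in the Cpt2 group, each against the reference group, where 7.60% and 10.3% of all genes were, in the authors' deposited tables. Set against the Cpt2 group, the Cpt1a knockout had 1 higher and 5 lower, where 14.2% and 14.6% of all genes were, at a list median of −0.22 in the authors' deposited table. Those named by the rule were Lepr, the leptin receptor (log2 fold change −2.61, adjusted p = 0.000534), Stat5a, Stat3 (−0.40, adjusted p = 0.00677) and Socs3, a cytokine-induced inhibitor (0.84, adjusted p = 0.00768), in the authors' deposited table. Lepr ran from 0.887 to 4.67 FPKM between livers, with liver 1 the highest. Stat3, which transmits interleukin 6 signals, was also the 1 gene of this list lower in the Cpt1a knockout than in the reference group in the authors' deposited table (−0.64, adjusted p = 0.0151). Of 16 genes of the IGF system, 13 had an adjusted p in each full table. Against the reference group 1 was higher in the Cpt1a knockout and 1 in the Cpt2 group, where 6.81% and 10.3% of all genes were. The Cpt1a knockout had 1 higher and 1 lower against the Cpt2 group, where 14.2% and 14.6% of all genes were. These counts are near those shares. Igf2r, which clears IGF2, was 1.47-fold higher in the Cpt2 group than in the reference group in the authors' deposited table (adjusted p = 0.0159). It had a log2 fold change of −1.07 in the Cpt1a knockout against the Cpt2 group in the authors' deposited table (adjusted p = 2.14e-06). The other gene called in this list was Mmp9, a matrix protease, at 2.22 and 1.65 on the log2 scale in the authors' deposited tables for the Cpt1a knockout against the reference and against the Cpt2 group (adjusted p = 0.0147 and 0.0313). It had 11 to 32 counts a liver.

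The list of male-biased or STAT5 dependent liver genes had 26 of its 27 names in the count table. Of 25 with an adjusted p, 15 were lower and none higher in the Cpt2 group than in the reference group, where 10.7% and 10.3% of all genes were, at a list median of −1.29 in the authors' deposited table. Susd4 (log2 fold change −2.16), Mup1 (−3.27), Cyp7b1, an oxysterol hydroxylase (−2.30), and C8b, of the complement membrane attack complex (−1.48), had the smallest adjusted p there (6.89e-22 to 2.10e-10), in the authors' deposited table. In the Cpt1a knockout 10 were lower and none higher than in the reference group in the authors' deposited table, where 7.60% and 6.81% of all genes were, at a median summed log2 fold change of −0.63 over 24 genes. Mup7 (−1.97), Cyp2d9 (−1.09), Susd4 (−1.37) and Serpina1e (−1.23) were named there by the rule, in the authors' deposited table. Set against the Cpt2 group, the Cpt1a knockout had 11 of 25 higher and 2 lower, where 14.2% and 14.6% of all genes were, at a list median of 0.62 in the authors' deposited table. Slco1a1, an organic anion transporter, was 3.83-fold higher, Mup3 2.34-fold, Mup20 2.33-fold and Ugt2b1, a glucuronosyltransferase, 1.89-fold, in the authors' deposited table. The 2 lower ones were Cyp4a12a (−0.67, adjusted p = 0.00735) and Hsd3b5 (−1.28, adjusted p = 0.00855), the latter at 8 to 35 counts a liver. Mup genes are near-identical copies, and how reads were shared among them is uncertain.

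Of the 20 female-biased genes, 4 had no read in any of the livers and 7 reached a mean FPKM of 1. Against the reference, 3 were higher and 3 lower in the Cpt1a knockout, by the authors' deposited table, where 6.81% and 7.60% of all genes were. Of 11 with an adjusted p, 1 was higher and 2 were lower in the Cpt2 group, by the authors' deposited table, where 10.3% and 10.7% of all genes were. Acot3 (2.72) and Rtn4 (0.96) were higher and Sult1e1, estrogen sulfotransferase (−5.19), and Cyp2b10 (−3.68) lower in the Cpt1a knockout in the authors' deposited table. Rtn4 (0.83) was higher and Sult1e1 (−3.97) and Cyp3a16 lower in the Cpt2 group in the authors' deposited table. Cyp3a16 had 23 counts in liver 1 and 0 in the other 3 livers, but these livers are not in the comparison that called it. Sult1e1 had 1 to 4 counts a liver, so the size of its fold change in the Cpt1a knockout is uncertain. Counts of the Cpt2 and reference groups were not used, so how firm the Cpt2 group's values are is not known. Of 13 female-biased genes tested against the Cpt2 group, the Cpt1a knockout had 3 higher and 1 lower, as the authors' deposited table gives them, where 14.2% and 14.6% of all genes were. Cux2, a transcription factor of female liver that growth hormone controls, was 7.5-fold higher in the Cpt1a knockout than in the Cpt2 group (adjusted p = 0.00655), with Acot3 at 1.10, Trim24 at 0.50 and Cyp2b10 at −1.64 on the log2 scale, in the authors' deposited table. Cux2 ran from 0.448 to 2.04 FPKM in the livers.

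Among 25 regulators and other fasting genes, 8 were lower and none higher in the Cpt1a knockout than in the reference group, where 7.60% and 6.81% of all genes were, in the authors' deposited table. In the Cpt2 group 4 were higher and 7 lower than in the reference group, where 10.3% and 10.7% of all genes were, in the authors' deposited table. Foxo1, the factor that drives Igfbp1, was at −0.87 (adjusted p = 0.00180) and −1.02 (adjusted p = 3.73e-07) in these groups in the authors' deposited tables. Tsc22d3, a glucocorticoid receptor target, had −1.54 and −2.49, and G6pc, glucose-6-phosphatase and like Igfbp1 a FOXO1 target, −1.25 and −2.76, in the authors' deposited tables. Pck1, another FOXO1 target, had −0.73 in the Cpt1a knockout, and Trib3, a stress-induced pseudokinase, 1.85 in the Cpt2 group, by the authors' deposited tables. Against the Cpt2 group the Cpt1a knockout had 5 higher and 5 lower, where 14.2% and 14.6% of all genes were, among them G6pc (1.5), Insig2, which restrains sterol synthesis (−1.45), and Trib3 (−1.23), in the authors' deposited table. Fgf21, a fasting hormone known to blunt growth hormone signalling in the liver, had −1.58 in this comparison (adjusted p = 5.14e-06) in the authors' deposited table. In the Cpt2 group against the reference group Fgf21 had 2.74 (adjusted p = 0.000112) in the authors' deposited table. It was at 14.9 to 35.8 FPKM in the livers. Between the Cpt1a knockout and the Cpt2 group, G6pc and Igfbp1 differed in opposite directions and Pck1 was not called, as the authors' deposited table gives them. The part of FOXO1 in these values was not tested.

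**Figure D5:**
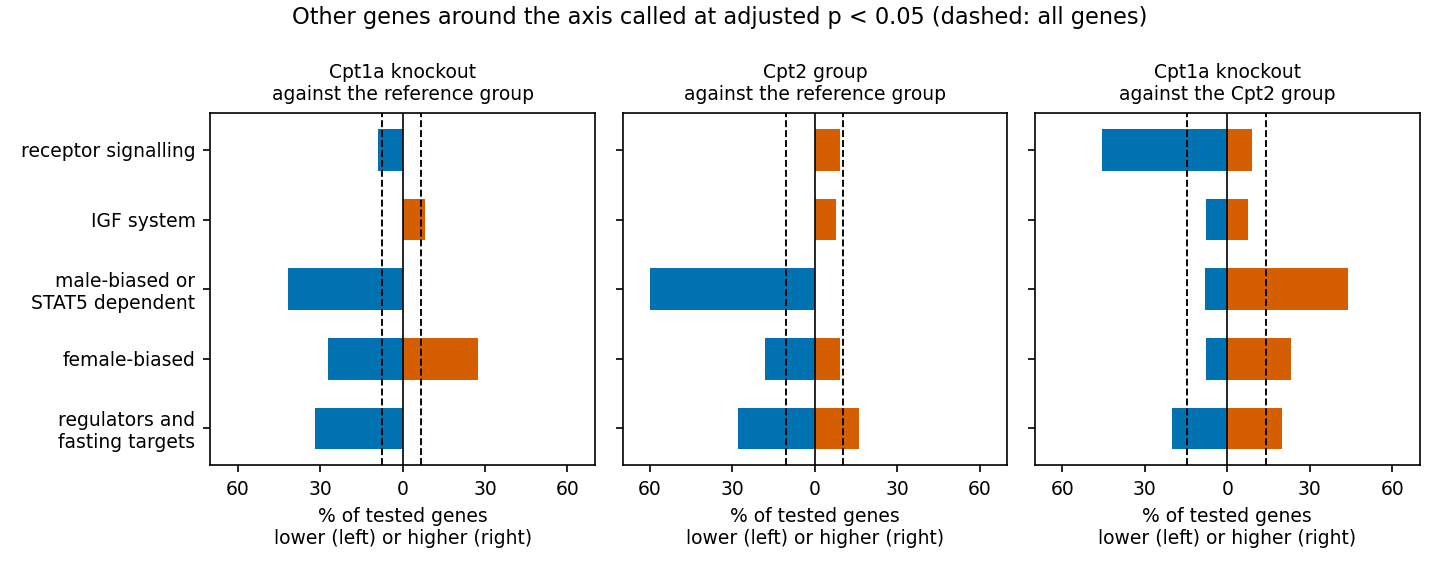
Share of genes with an adjusted p in 5 lists that were higher (orange, right) or lower (blue, left) at an adjusted p below 0.05, in percent, in the authors' 3 comparisons. Dashed lines give the shares over all genes tested, and for the first panel, whose table is partial, shares are of the list genes that both full tables adjusted. The bar of male-biased or STAT5 dependent genes is the longest to the left in the middle panel, with 15 of 25.

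Some cell type markers were called in these comparisons, and in bulk tissue fewer cells of a type and less RNA per cell cannot be told apart. Of 6 hepatocyte markers, 4 were lower than in the reference group in the Cpt1a knockout, and 4 in the Cpt2 group, by the authors' deposited tables, with Alb at −1.23 and −1.41. Of all genes 7.60% and 10.7% were lower in these comparisons. All 6 were at a mean FPKM of 1 or more in the livers, with a sum of 18307 to 26623 FPKM. Against the Cpt2 group, 1 hepatocyte marker was higher in the Cpt1a knockout (Ttr, 0.94) and 1 lower (Cps1, −1.21), at a list median of −0.09, in the authors' deposited table. All 6 Kupffer cell markers were higher in the Cpt1a knockout than in the Cpt2 group in the authors' deposited table, from Clec4f (0.75) to Timd4 (1.48), at a list median of 1.06. Their summed level was 102 to 128 FPKM in the livers. In the Cpt2 group 3 of these 6 were lower than in the reference group, and in the Cpt1a knockout 1 was higher, where 10.7% and 6.81% of all genes were, in the authors' deposited tables. Endothelial markers had 2 of 6 higher and stellate cell markers 1 higher and 1 lower of 7 in the Cpt1a knockout against the Cpt2 group in the authors' deposited table. Bile duct, lymphocyte and neutrophil markers had 1 of 5, 2 of 5 and 0 of 3 called there, and no marker was at 0 in all 4 livers. Of all genes 28.8% were called in the Cpt1a knockout against the Cpt2 group, 14.2% higher and 14.6% lower. With lists this short, the endothelial, stellate, bile duct, lymphocyte and neutrophil counts do not stand apart from those shares. The part of these cell types in the values of Ghr, Igf1, Igfals and the binding proteins was not tested.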

How the data were processed

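RNA-seq libraries of 4 livers were used. Per the submitters' processing notes, reads were aligned with HISAT2 to GRCm38 (mm10). No source used here names the counter, the annotation release or the strand setting. The authors deposited raw counts per gene and FPKM per gene. Their 3 comparison tables hold log2 fold changes with raw and adjusted p-values, per the file headers. No source used here names the test behind them. The 8 per-sample columns of the count table that match no sample here, and the tables' group means, were not used, so no test between groups was fitted.

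A gene was called at the authors' adjusted p below 0.05. Genes listed with an adjusted p of 1 counted as untested. The number of genes behind the partial table was worked out from its p-values, a step checked on simulated data. For 4424 genes in all 3 tables, the summed log2 fold change differed from the listed one by a median of −0.01. The sum was used where no value was listed. Sequencing with the other groups in 1 batch is not stated, so batch and genotype cannot be told apart. Members, lists and rules were chosen with earlier results of these data known. The text names all 10 members, up to 4 called genes of each list and comparison by adjusted p, and 7 fixed relatives. Marker genes, Igf2, Igf1os and sequence windows were named as examples, and Cyp4a12a and Hsd3b5 to show the other direction in their list. Of the lists, Es1 had no match and Ddit3 had 2 identifiers, and both were left out. TMM factors came from edgeR 4.0.16 and size factors from DESeq2 1.42.0, run on the deposited counts for the alternatives (R 4.3.3). Alternatives were other thresholds, a minimum mean count of 10 in the 4 livers, other scalings and lengths, a pseudocount of 0.1 and leaving out each liver.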

Additional observations from a re-analysis of the deposited data

Results flagged for a closer look

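Socs2 had 1 liver far from the others. Liver 2 was at 2.01 FPKM and the other 3 at 2.78 to 2.93, and the gap below them was 0.835 of the whole range. Chance gives such a gap in about 1 in 20 groups, and 10 genes were looked at.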

How the results depend on the processing

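No paired analysis was possible because the series holds 1 group of samples. At an adjusted p below 0.01 the members called in the Cpt1a knockout against the reference group went from 2 to 0, in the Cpt2 group against the reference group from 5 to 4 and in the Cpt1a knockout against the Cpt2 group from 8 to 6. Adding a minimum absolute log2 fold change of 1, the counts were 0, 3 (Ghr, Igfals, Igfbp4) and 2 (Igfbp1, Igfals). Redone over genes at a mean count of 10 or more in the 4 livers, the adjustment called 5 and 8 members, and for the partial table it was not run. All members pass that filter, and the 4 livers take no part in the Cpt2 group against the reference group. The median over members of the mean level was 31.9 FPKM, and 35.7 with TMM library sizes, 35.7 with DESeq2 size factors, 83.3 as TPM, 38.8 over the longest coding transcript (an alternative chosen after seeing the data), and 31.3 to 32.2 when each liver was left out. The order of the members stayed the same under the 3 scalings, which share the authors' lengths, and without liver 3 or liver 4, and 8 of 10 kept their rank without liver 1 or liver 2, and 4 of 10 over the longest coding transcript. The members' median SD was 0.20 on the log2(FPKM + 0.1) scale, against 0.25 over all genes at a mean FPKM of at least 1. Over all genes with a read the median SD was 0.14, below the members' 0.16. Summed log2 fold changes of Igfbp2, Igfbp4 and Stat5b were −0.85, −0.42 and −0.43. Members had at least 288 counts a liver, and the effect of depth was not tested. The group values carry no error, since the authors' tables give none.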
